A study of Mus musculus with 28 samples.

Results

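The response of hippocampal microglia to the 5xFAD transgenes was read as an average over 3 housing conditions. All 28 of the 28 mice of the series enter the contrast, 14 of them 5xFAD and 14 wild type (WT), and the mean of the 3 5xFAD groups was set against the mean of the 3 WT groups with each housing weighted equally. The 5xFAD mice were heterozygous males on the C57BL/6J background. They carry mutant human APP and PS1 transgenes under a neuron-specific promoter, and the WT mice were their littermates. Specific pathogen-free (SPF) housing held 5 WT and 3 5xFAD mice. Germ-free (GF) housing held 4 WT and 5 5xFAD mice, which came from another facility than the SPF mice, so that the germ-free state and the facility cannot be told apart. A further 5 WT and 6 5xFAD mice had received antibiotics (ABX) in the drinking water for 8 weeks, namely vancomycin, cefoxitin, gentamicin and metronidazol. All mice were 16 weeks old by the labels. Viable CD11b+CD45low cells were sorted from the hippocampus with a dump gate that included Ly6C and Ly6G, of which Ly6G marks neutrophils and Ly6C monocytes, and their RNA was amplified and sequenced as 1 library per mouse.

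Microglia are the resident macrophages of the brain. In healthy tissue they survey their surroundings and express a characteristic set of receptors and transcription factors that depends on TGF-beta. Around amyloid plaques they are known to change state: the lipid receptor TREM2 and its adaptor TYROBP signal for a programme called disease-associated microglia (DAM), in which genes of lipid handling, lysosomal digestion and phagocytosis are induced and homeostatic genes are lost. Interferon-responsive, antigen-presenting and proliferating microglia have been described beside it. Because RNA of whole sorted samples was measured, a change in the number of cells of a given state and a change in RNA per cell cannot be told apart in the values that follow.

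Between 14441610 and 29977395 reads were assigned to genes per library. The mouse gene *App* was at 170.4 over 218 to 244 CPM (reads per 1000000, scaled by TMM factors, given throughout as lowest over median to highest of 14 mice) in WT and 189 over 250.3 to 296 CPM in 5xFAD mice (log2 fold change 0.25, SE 0.0535; edgeR adjusted p = 6.29e-04). With the numbering style as a term, or in GF mice alone, the *App* effect was 0.12 and was not called. The transgenes are human, so that the genotype labels are not checked by it. The 10 microglia markers summed to 63790 to 71220 CPM of library totals in WT and 50260 to 62820 CPM in 5xFAD mice. The sums did not overlap, but they are not scaled by TMM factors (1.013 to 1.067 in WT, 0.918 to 1.02 in 5xFAD mice). Separation on the TMM scale is therefore not shown. Of the 10 markers, 1 was called higher and 5 lower. The 11 markers of border-associated macrophages summed to 3.88 to 50.6 CPM in WT and 18.8 to 282 CPM in 5xFAD mice. In the averaged contrast 11 of 11 were called higher, against 14.3% of all genes tested. With the numbering style as a term 1 of 11 was called higher, against 1507 of all 15298 genes. In GF mice alone it was also 1 of 11, against 9.49% of all genes. Neutrophil markers summed to at most 0.317 CPM in WT mice, to 66.9 to 275 CPM in the 3 SPF 5xFAD mice, to 152 CPM in mouse FAD_ABX_1151 and to at most 5.02 CPM in the others. Of tested markers, 2 of 6 for monocytes, 1 of 7 each for neutrophils, astrocytes and oligodendrocytes and 1 of 5 for endothelial cells were called higher, against 14.3% of all genes tested, and 0 of 8 for neurons, 0 of 1 for B cells and 0 of 1 for T cells. The neutrophil genes *S100a8* and *S100a9* were not called by the main test but were called higher by DESeq2, by voomWithQualityWeights and in an additive model of housing and genotype. Called lower were 2 neuron markers and 1 each for monocytes, astrocytes, oligodendrocytes and endothelial cells, against 10.9% of all genes, and no erythrocyte marker had enough reads. The sample numbers in the descriptions follow 3 styles that separate the genotypes entirely in SPF and ABX housing, where style and genotype cannot be told apart, whereas GF mice share 1 style. A fit with the style as a term therefore takes its genotype effect from GF mice, and its estimates are those of GF mice alone by construction. The 3 SPF 5xFAD mice and FAD_ABX_1151, which had the highest neutrophil sums, are the only mice of 1 of the styles. Mouse FAD_GF_201 is 5xFAD by title and genotype but WT by its description, and was kept as 5xFAD.

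Of 15298 genes tested, 3846 differed between 5xFAD and WT mice in the averaged contrast (25.1%; edgeR quasi-likelihood test, Benjamini-Hochberg adjusted p under 0.05). They divided into 2186 higher (14.3%) and 1660 lower (10.9%) in 5xFAD mice, with unequal sizes. The median log2 fold change was 0.64 among the genes called higher and -0.34 among those called lower, against -0.03 over all genes tested. At least 1 log2 unit was reached by 779 genes called higher and 90 called lower, and at least 2 units by 389 and 35. The split depends on the scaling: with library size alone in place of TMM factors, 1756 genes were called higher and 2972 lower, and the median of all genes was -0.12. Without mouse FAD_GF_201, 3961 genes were called, and without mice FAD_ABX_1151 and FAD_ABX_1482, a choice taken from earlier work on these data, 4078. An average over GF and ABX mice alone gave 3705 calls (24.2%). It leaves out the SPF libraries with neutrophil transcripts but keeps mouse FAD_ABX_1151, with 152 CPM of neutrophil markers.

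Of the 3846 genes called, 3562 (92.6%) had the same sign in each housing, against 47.3% of all genes tested. The choice of genes by the average of these effects largely sets the share of 92.6%. Within housings, SPF mice gave 714 calls (4.67%), GF mice 2411 (15.8%) and ABX mice 2210 (14.4%). With limma's voomWithQualityWeights, the method of the study, the counts were 2154, 2455 and 2183, and without mouse FAD_SPF_1144 edgeR called 434 genes for SPF mice. The average called 944 genes that passed in no housing on its own, 411 higher and 533 lower, with a median size of 0.36 log2 units. A further 481 genes passed in each housing and in the average with the same sign, 428 higher and 53 lower, with a median size of 1.14.

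The 3 housings share no mouse, so genes chosen in a pair of housings were also read in the third, although all contrasts share 1 estimate of the spread. The WT mice of SPF and ABX housing also share 1 numbering style that no 5xFAD mouse has. The part of style in the agreement of SPF and ABX mice was not tested. Averaged over GF and ABX, 2141 genes were called higher (14.0%). In SPF mice 92.1% of these had a positive fold change, against 46.3% of all genes, and 25.9% were called higher, with 3.78% as background. Called in SPF mice in the same direction as in the pair were 665 genes, higher or lower, but 414 without mouse FAD_SPF_1144 and 1411 with voomWithQualityWeights. The median log2 fold change of the 2141 genes was 0.66 in the housings that chose them and 0.42 in SPF mice. Of 1498 genes called higher over SPF and ABX (9.79%), 92.9% had a positive fold change in GF mice (47.5% of all genes) and 55.7% were called higher there (background 9.49%). Of 1619 called higher over SPF and GF (10.6%), 93.6% had a positive fold change in ABX mice (48.7% of all genes) and 54.9% were called higher there (background 9.45%). Genes called lower kept their sign in the third housing for 87.1% of 1564 in SPF, 86.8% of 835 in GF and 83.8% of 1041 in ABX mice, against 53.6%, 52.3% and 51.3% of all genes, and 7.03%, 38.4% and 25.4% of them were called lower there (backgrounds 0.882%, 6.27% and 5.0%). The pairs of housings that chose these genes called 10.2%, 5.46% and 6.8% of all genes lower.

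For 261 genes each of the 14 5xFAD mice lay above each of the 14 WT mice (1.71%), and for 20 genes each lay below (0.131%). All 281 were also called in the averaged contrast. The highest averaged change was that of *Mamdc2*, a gene on chromosome 19 whose product carries MAM domains. It had 1 read in all 14 WT mice and 6607 in the 5xFAD mice, where it ranged from 12.9 over 20.8 to 40.5 CPM. The ratio of its shares of all reads was 6295, with an exact 95% counting interval of 1129 to 248700, and its fitted log2 fold change of 11.33 depends on the prior count. *Cst7* codes for cystatin F, an inhibitor of lysosomal cathepsins. It ranged from 5.65 over 7.88 to 17.0 CPM in WT and from 532 over 765 to 1652 CPM in 5xFAD mice, so that the lowest 5xFAD mouse stood 31.2-fold above the highest WT mouse. The averaged difference was 101-fold (log2 fold change 6.66, SE 0.157; edgeR adjusted p = 2.01e-23). Its log2 fold changes in SPF, GF and ABX mice were 6.52, 7.10 and 6.36. No difference between housings was detected (F test adjusted p = 0.405), and the 95% intervals bound each pairwise difference to within 1.36 log2 units.

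**Figure D1:**
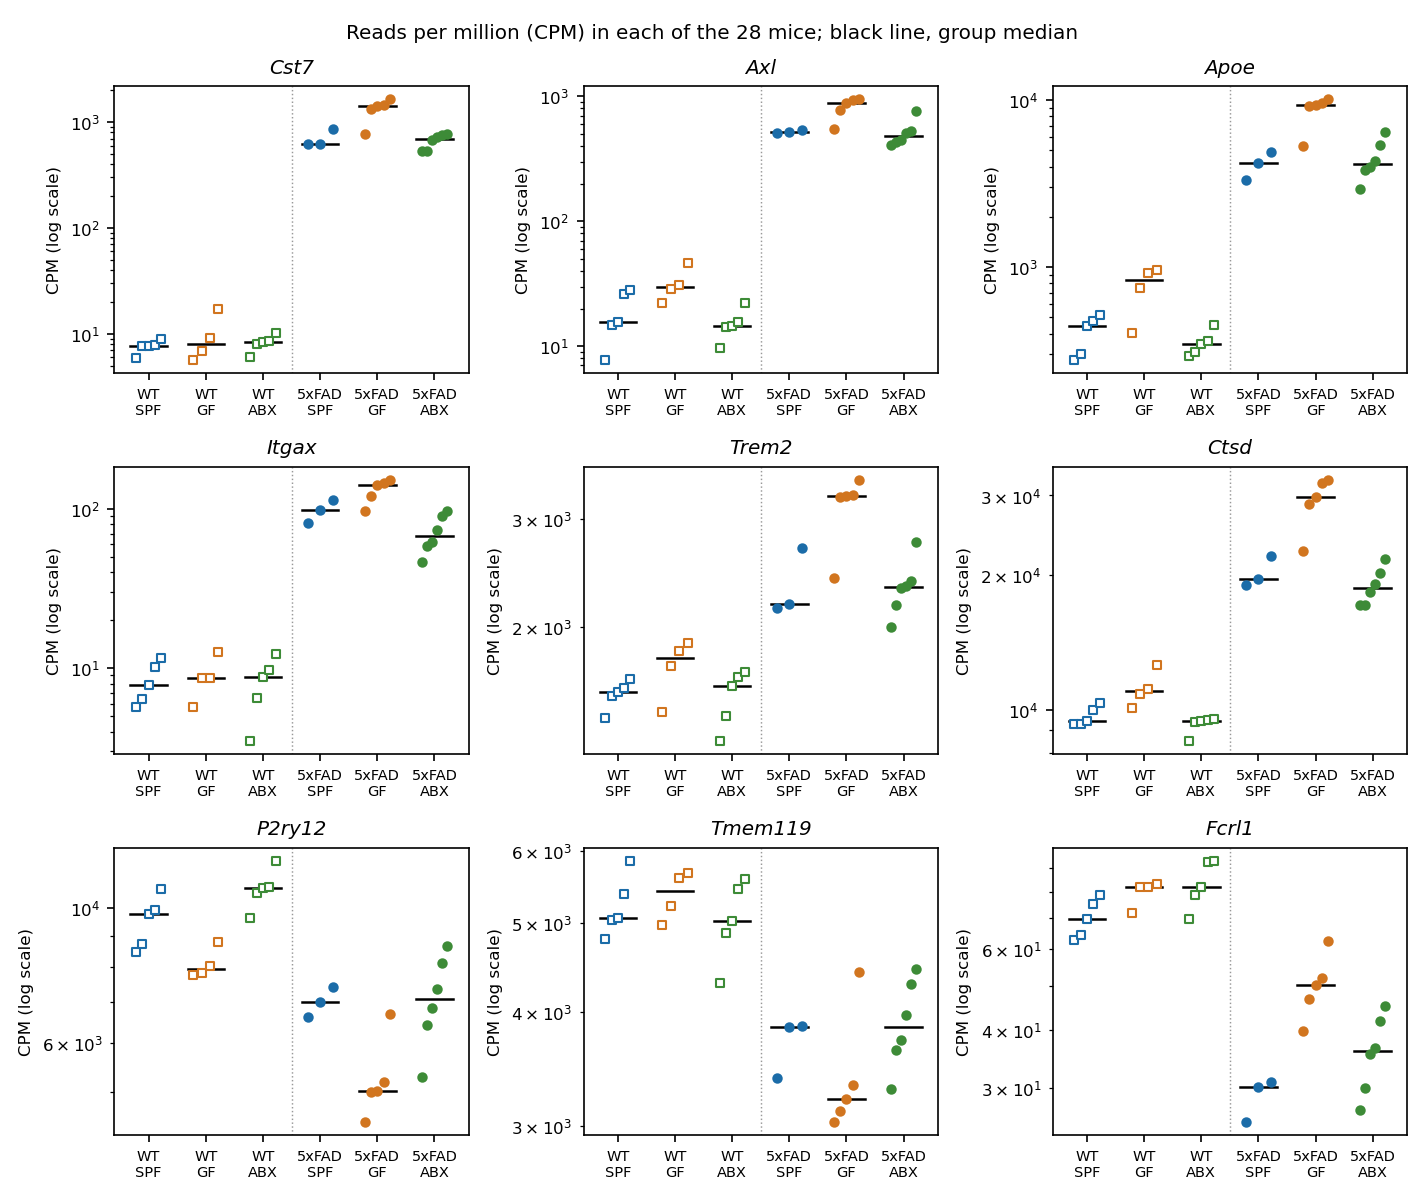
CPM of 9 genes in each mouse on log axes, with squares for WT and circles for 5xFAD mice in the 3 housings and a black line at each group's median; points within a group are drawn in order of value. *Cst7*, *Axl*, *Apoe*, *Itgax*, *Trem2* and *Ctsd* are higher in every 5xFAD mouse than in any WT mouse, *Fcrl1* is lower in every 5xFAD mouse, and *P2ry12* and *Tmem119* are lower with overlap.

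The 10 largest rises among named genes of at least 3 log2 CPM on average, with the same sign in each housing, were *Mamdc2*, *Baiap2l2*, *Efr3b*, *Cst7*, *Ch25h*, *Actr3b*, *Igf1*, *Etl4*, *Bhlhe40* and *Lox*. In none of the 10 did a 5xFAD mouse overlap with a WT mouse. *Igf1*, the gene for insulin-like growth factor 1, ranged from 0 over 0.680 to 2.11 CPM in WT and from 40.6 over 56.8 to 125 CPM in 5xFAD mice (log2 fold change 6.43, SE 0.271; edgeR adjusted p = 1.74e-17). *Ch25h* codes for cholesterol 25-hydroxylase, which makes an oxysterol. It ranged from 0 over 0.131 to 2.18 CPM in WT and from 16.2 over 37.2 to 74.9 CPM in 5xFAD mice. *Bhlhe40*, a transcriptional repressor, ranged from 0 over 0.723 to 2.12 CPM in WT and from 19.7 over 35.3 to 81.9 CPM in 5xFAD mice. *Lox*, the collagen cross-linking enzyme lysyl oxidase, ranged from 0 over 0.347 to 1.68 CPM in WT and from 5.93 over 16.9 to 23.6 CPM in 5xFAD mice. The effects of *Efr3b* in SPF, GF and ABX mice were 5.23, 9.06 and 6.86 and those of *Baiap2l2* 7.01, 7.24 and 8.87, and neither difference passed the F test (adjusted p = 0.199 and 0.53). With so few WT reads the intervals of their pairwise differences reach 6.17 and 3.75 log2 units, so that equal effects cannot be read from this. *Etl4* had effects of 6.03, 6.11 and 6.28, and *Actr3b*, a gene of the actin-nucleating ARP complex family, 6.67, 6.99 and 5.81.

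**Figure D2:**
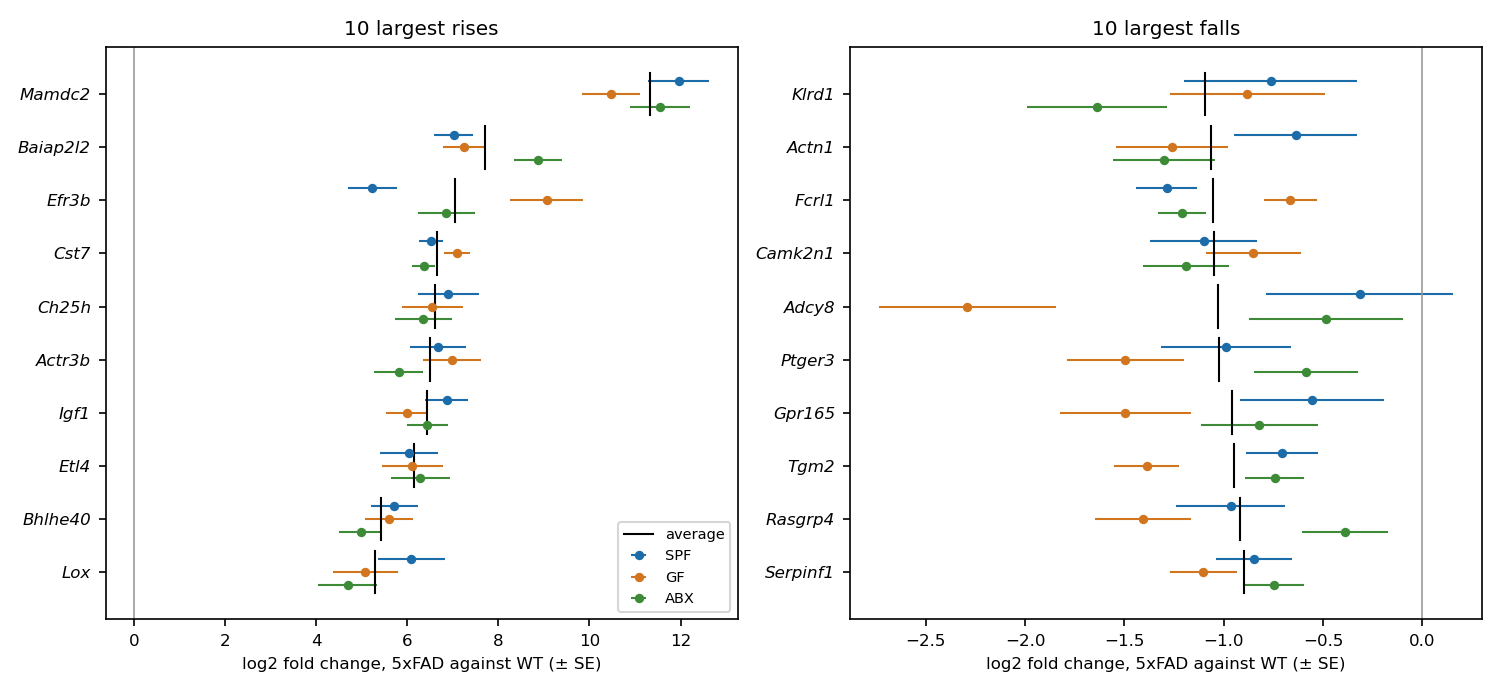
5xFAD effect (log2 fold change) within SPF, GF and ABX housing (points, ± SE) and its average (black tick) for the 10 largest rises and the 10 largest falls of at least 3 log2 CPM on average. The averages run from 5.29 to 11.33 among the rises and from -1.09 to -0.90 among the falls; the value of *Mamdc2*, with 1 read in all WT mice, depends on the prior count.

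All 37 DAM genes tested were called higher in the average (background 14.3%), but the list was drawn up with earlier results of these data known. Each of the 37 also passed within every housing (backgrounds 3.78%, 9.49% and 9.45% for SPF, GF and ABX), and for 32 of them the genotypes did not overlap (1.71% of all genes). Their median log2 fold change was 2.45, with 2.32, 2.79 and 2.23 for SPF, GF and ABX mice. *Trem2*, the receptor gene, had the smallest change of the list. It ranged from 1310 over 1601 to 1889 CPM in WT and from 2006 over 2391 to 3464 CPM in 5xFAD mice, without overlap (log2 fold change 0.68, SE 0.0589; edgeR adjusted p = 2.07e-10). The adaptor gene *Tyrobp* rose by 1.30, with 1.13, 1.83 and 0.95 in SPF, GF and ABX mice, and this difference between housings was called close to the threshold (F test adjusted p = 0.0492). Such calls hung on single mice, with 2 over all genes without mouse FAD_GF_185. *B2m* was the only other member with such a call. *Axl*, a receptor that recognises apoptotic cells, ranged from 7.75 over 18.8 to 46.1 CPM in WT and from 411 over 532 to 952 CPM in 5xFAD mice (log2 fold change 4.86, SE 0.172; edgeR adjusted p = 3.24e-19). Its effects in SPF, GF and ABX mice were 4.81, 4.68 and 5.08. *Clec7a*, the beta-glucan receptor dectin-1, ranged from 18.2 over 27.1 to 37.8 CPM in WT and from 269 over 338 to 544 CPM in 5xFAD mice, 13.4-fold higher. *Itgax*, the integrin chain CD11c, ranged from 3.49 over 8.68 to 12.6 CPM in WT and from 46.2 over 97.0 to 152 CPM in 5xFAD mice. *Lilrb4a*, an inhibitory receptor, rose by 3.37.

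Among secreted DAM products, *Apoe*, the main apolipoprotein of the brain, ranged from 278 over 425 to 955 CPM in WT and from 2922 over 5100 to 10150 CPM in 5xFAD mice, 11.5-fold higher (log2 fold change 3.52, SE 0.144; edgeR adjusted p = 1.21e-17). The genotypes did not overlap. GF mice had the highest group medians in both genotypes, 835.6 CPM in WT and 9330 CPM in 5xFAD mice for *Apoe*. *Lpl*, lipoprotein lipase, had effects of 3.98, 3.99 and 3.89 in SPF, GF and ABX mice, with each pairwise difference bounded to within 0.747 log2 units. *Spp1* (osteopontin) rose by 4.13, *Csf1*, whose product binds the receptor that microglia need for survival, by 2.71, and the chemokine genes *Ccl3*, *Ccl4* and *Ccl6* by 3.10, 2.33 and 2.08. The 5 members whose mice overlapped were *Gpnmb*, *Dkk2*, *Lgals3*, *B2m* and *Serpine2*. *Gpnmb* had 5 reads in all WT mice and ranged from 0 over 4.11 to 32.3 CPM in 5xFAD mice. As means over the 37 genes, WT mice lay between 5.52 and 6.35 log2 CPM and 5xFAD mice between 8.08 and 9.33.

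Promoter windows came from RefSeq (GRCm38.p6; 250 bases before to 50 after the start of a gene), and 28 of the 37 DAM genes had one. The AP-1 motif TGANTCA, searched on both strands, was in 6 of these 28 (21.4%), against 7.93% of all 27025 promoters and 4.87% of those of genes tested. It was also in 8 of 26 promoters of the interferon-stimulated list (30.8%), 11.1% of those of the lysosomal lists, 6.65% of those of all genes called higher and 7.78% of those at least 1 log2 unit higher. The motif GAGGAAGT of PU.1, the lineage factor of macrophages, was in 1 of the 28 (3.57%), against 3.28% of all promoters and 3.34% of those of genes tested. The 250 bases before the start are shown for the called genes with the lowest p that hold TGANTCA, *Igf1* (chr10:87860861-87861110, plus strand) and *Itgax* (chr7:128129300-128129549, plus strand), with the match in capitals. A match describes the letters and says nothing of a factor being bound.
Igf1: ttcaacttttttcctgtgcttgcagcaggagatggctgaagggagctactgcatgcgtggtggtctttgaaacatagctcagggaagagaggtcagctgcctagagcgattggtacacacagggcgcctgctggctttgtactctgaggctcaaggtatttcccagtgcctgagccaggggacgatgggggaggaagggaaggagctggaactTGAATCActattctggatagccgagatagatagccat
Itgax: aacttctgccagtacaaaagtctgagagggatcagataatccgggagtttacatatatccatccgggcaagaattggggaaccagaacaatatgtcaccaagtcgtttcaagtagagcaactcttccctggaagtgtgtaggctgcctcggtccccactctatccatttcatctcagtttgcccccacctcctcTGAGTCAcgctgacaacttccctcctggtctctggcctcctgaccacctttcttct

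Homeostatic genes moved the other way by smaller amounts. Of 34 genes, 20 were called lower and 3 higher (backgrounds 10.9% and 14.3%), with a median log2 fold change of -0.20. *P2ry12*, the purinergic receptor that guides microglial processes, ranged from 7750 over 9701 to 11930 CPM in WT and from 4457 over 6668 to 8654 CPM in 5xFAD mice (log2 fold change -0.55, SE 0.0641; edgeR adjusted p = 7.53e-08). Its effects in SPF, GF and ABX mice were -0.44, -0.62 and -0.60. *Tmem119*, a microglial surface protein, ranged from 4304 over 5140 to 5844 CPM in WT and from 3033 over 3683 to 4456 CPM in 5xFAD mice and fell by 0.51 log2 units. For both genes the ranges overlapped. *Txnip*, an inhibitor of thioredoxin, was the only member without overlap (0.131% of all genes lay lower in this way), with 479.6 over 587 to 704 CPM in WT and 304 over 389 to 474 CPM in 5xFAD mice. The receptor genes *P2ry13* (-0.54), *Gpr34* (-0.35) and *Cx3cr1* (-0.33) were called lower as well, as were *Maf* (-0.59) and *Sall1* (-0.35), which code for transcription factors of microglial identity. Other members were not called: *Cst3* (cystatin C) stood at 0.03 (95% interval -0.10 to 0.16) and *Csf1r*, the receptor of CSF1, at -0.01. The 3 called higher were *Egr1* (1.08), *Gas6*, a ligand of AXL (0.39), and *Itgb5* (0.36).

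**Figure D3:**
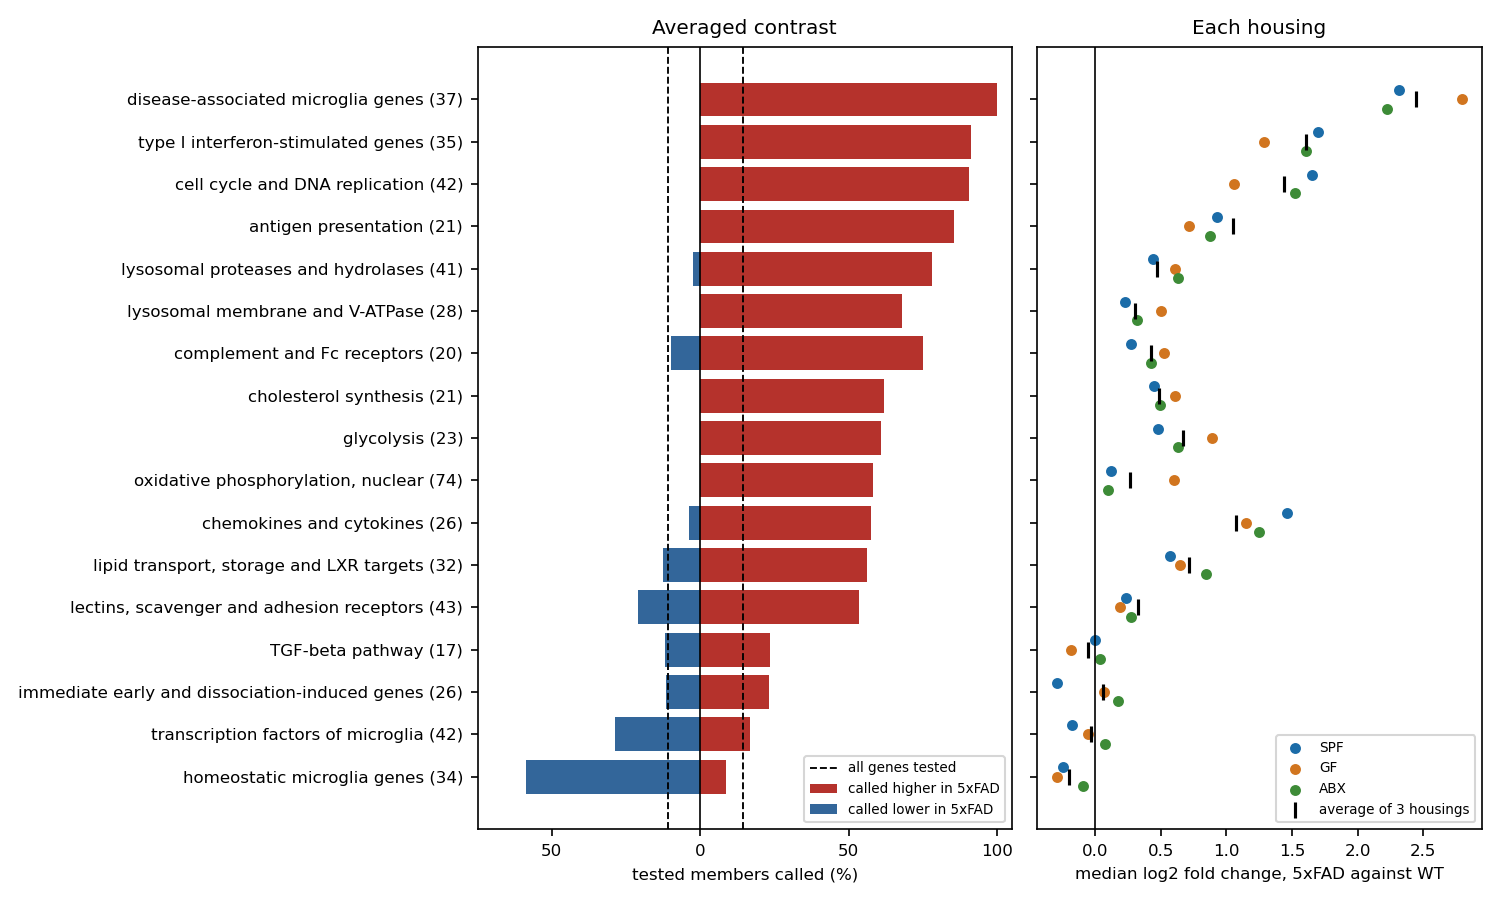
Left, percentage of the tested members of 17 gene lists called higher or lower in the averaged contrast, with dashed lines at the 14.3% and 10.9% of all genes tested; right, median log2 fold change of the same members in each housing and in the average. Oxidative phosphorylation genes have a median of 0.60 in GF mice, 0.12 in SPF mice and 0.10 in ABX mice.

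Genes of lysosomal digestion rose. Of 41 proteases and hydrolases tested, 32 were called higher and 1 lower (14.3% and 10.9% of all genes tested), with a median of 0.47. For 20 there was no overlap (1.71% of all genes). *Ctsd*, cathepsin D, ranged from 8525 over 9516 to 12560 CPM in WT and from 17080 over 20960 to 32470 CPM in 5xFAD mice (log2 fold change 1.16, SE 0.0505; edgeR adjusted p = 3.45e-17). *Gusb*, beta-glucuronidase, ranged from 351 over 410.3 to 563 CPM in WT and from 778 over 1023 to 1622 CPM in 5xFAD mice. *Hexa*, a lysosomal hydrolase gene, ranged from 1042 over 1108 to 1292 CPM in WT and from 1874 over 2151 to 3104 CPM in 5xFAD mice (1.05). Further rises without overlap were *Ctsb* (1.39), *Gla* (1.38), *Ctsz* (1.14), *Npc2* (1.10), *Ctsl* (1.05) and *Grn* (0.83), the progranulin gene. *Lgmn*, the asparagine endopeptidase, was the member called lower (-0.23), with -0.62, -0.11 and 0.04 in SPF, GF and ABX mice. Of 28 lysosomal membrane proteins and subunits of the proton pump, 19 were called higher and 0 lower (the same backgrounds apply), with a median of 0.31, or 0.50 in GF mice. *Cd63* rose by 1.70, *Cd68* by 0.94 and *Lamp1* by 0.63, each without overlap. The pump subunit genes *Atp6v1a*, *Atp6v0c* and *Atp6v1b2* rose by 0.69, 0.73 and 0.52, while *Atp6v0b* was not called (0.06, 95% interval -0.03 to 0.16), although it was called higher in GF mice alone (0.26, edgeR adjusted p = 0.0275).

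The E-box CACGTG, which lies inside the longer motif TCACGTGA of lysosomal promoters, was in 14 of 54 promoters of the lysosomal genes on either strand (25.9%), against 7.24% of all promoters, 10.1% of those of genes tested and 11.1% of those of genes called higher. TCACGTGA itself was in 6 of the 54 (11.1%), against 1.01% and 1.99% of all and of tested. The windows before *Ctsd* (chr7:142387828-142388077, minus strand) and *Ctsl* (chr13:64370521-64370770, minus strand) are shown as those of the called genes with the lowest p that hold CACGTG, in capitals.
Ctsd: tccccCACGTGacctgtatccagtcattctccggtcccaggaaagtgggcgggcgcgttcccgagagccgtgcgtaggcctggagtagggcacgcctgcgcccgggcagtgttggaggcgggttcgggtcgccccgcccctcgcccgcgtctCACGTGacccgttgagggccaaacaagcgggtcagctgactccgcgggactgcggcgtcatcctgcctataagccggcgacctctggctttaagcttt
Ctsl: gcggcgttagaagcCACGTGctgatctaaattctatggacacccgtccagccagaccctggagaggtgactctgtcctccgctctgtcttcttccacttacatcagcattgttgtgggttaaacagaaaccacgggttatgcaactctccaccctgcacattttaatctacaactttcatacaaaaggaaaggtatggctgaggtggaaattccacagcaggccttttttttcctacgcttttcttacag
Of the transcription factor genes *Mitf*, *Tfeb* and *Tfe3*, whose products are known to bind such motifs, *Mitf* (0.19) and *Tfeb* (-0.03) were not called and *Tfe3* fell by 0.16.

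Of 32 genes of lipid transport and storage tested, 18 were called higher and 4 lower (14.3% and 10.9% of all genes tested), with a median of 0.72, or 0.19 over genes with at least 10 reads in every library. Beside *Apoe*, *Lpl* and *Ch25h*, the fatty acid binding protein genes *Fabp5* and *Fabp3* rose by 4.73 and 4.81. *Soat1*, which esterifies cholesterol for storage, rose by 0.73 without overlap. *Plin2*, a lipid droplet protein, rose by 0.77. Of other targets of liver X receptors, *Mylip*, a ubiquitin ligase gene, fell by 0.43 and *Lpcat3* by 0.28, while the efflux transporter genes *Abca1* (-0.11) and *Abcg1* (-0.02) were not called. *Lrp1*, a receptor for apolipoprotein E, stood at 0.10 (95% interval -0.05 to 0.25) and was called higher only with gene length offsets (0.20). Of 21 cholesterol synthesis genes, 13 were called higher and 0 lower (the same backgrounds apply), with a median of 0.49. *Srebf2*, the regulator of the pathway, ranged from 14.9 over 22.5 to 34.6 CPM in WT and from 40.9 over 51.5 to 70.8 CPM in 5xFAD mice (log2 fold change 1.12, SE 0.0823; edgeR adjusted p = 5.38e-12). *Sqle* (1.86), *Cyp51* (1.04) and *Dhcr7* (0.94), which code for enzymes of sterol synthesis, rose too, while *Ebp* stood at 0.01 (95% interval -0.10 to 0.13).

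Interferon-stimulated genes rose in most members and varied from mouse to mouse. Of 35 tested, 32 were called higher and 0 lower (14.3% and 10.9% of all genes tested), with a median of 1.61 and of 1.70, 1.29 and 1.61 in SPF, GF and ABX mice. Over genes with at least 10 reads in every library the median was 0.92. With the numbering style as a term, 16 were called higher, against 1507 of all 15298 genes. Within SPF, GF and ABX housing 14, 15 and 20 members were called higher (3.78%, 9.49% and 9.45% of all genes). *Oas1a* and *Ifi27l2a* alone separated the genotypes without overlap (1.71% of all genes). *Oas1a*, a sensor of double-stranded RNA, ranged from 0.372 over 2.74 to 7.73 CPM in WT and from 10.3 over 15.9 to 31.4 CPM in 5xFAD mice (log2 fold change 2.62, SE 0.252; edgeR adjusted p = 1.75e-09). *Bst2*, the gene for tetherin, rose by 1.14 with overlapping mice, with effects of 1.15, 1.23 and 1.03 in SPF, GF and ABX mice. *Ifitm3* (3.09), *Zbp1* (2.60) and *Irf7* (1.84), a factor of interferon signalling, rose with overlapping mice. *Ddx58*, the gene for the RNA sensor RIG-I, was not called (0.06, 95% interval -0.17 to 0.28). As means over the list, WT mice ranged from 1.41 over 2.40 to 4.25 log2 CPM and 5xFAD mice from 3.65 over 4.30 to 5.52, and mouse WT_GF_230 lay among the 5xFAD mice. The median of the list was between 1.33, without mouse FAD_ABX_1452, and 2.01, without WT_GF_230.

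The core of the interferon-stimulated response element, a pair of GAAA runs with 2 bases of any kind between them, was in 15 of 26 promoters of the list on either strand (57.7%), against 3.49% of all promoters, 3.21% of those of genes tested and 7.59% of those of genes called at least 1 log2 unit higher. The windows of the called members with the lowest p that hold it are those of *Bst2* (chr8:71537473-71537722, minus strand) and *Oas1a* (chr5:120907526-120907775, minus strand), each with 2 overlapping matches in capitals.
Bst2: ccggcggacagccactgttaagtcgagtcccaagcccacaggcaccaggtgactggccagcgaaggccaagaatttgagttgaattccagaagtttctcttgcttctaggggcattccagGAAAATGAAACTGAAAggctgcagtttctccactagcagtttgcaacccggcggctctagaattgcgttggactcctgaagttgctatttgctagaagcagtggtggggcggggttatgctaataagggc
Oas1a: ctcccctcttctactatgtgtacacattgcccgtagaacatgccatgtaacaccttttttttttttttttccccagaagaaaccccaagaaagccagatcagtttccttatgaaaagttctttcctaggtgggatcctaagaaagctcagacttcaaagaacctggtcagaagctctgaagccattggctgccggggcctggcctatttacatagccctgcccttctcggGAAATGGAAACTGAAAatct

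**Figure D4:**
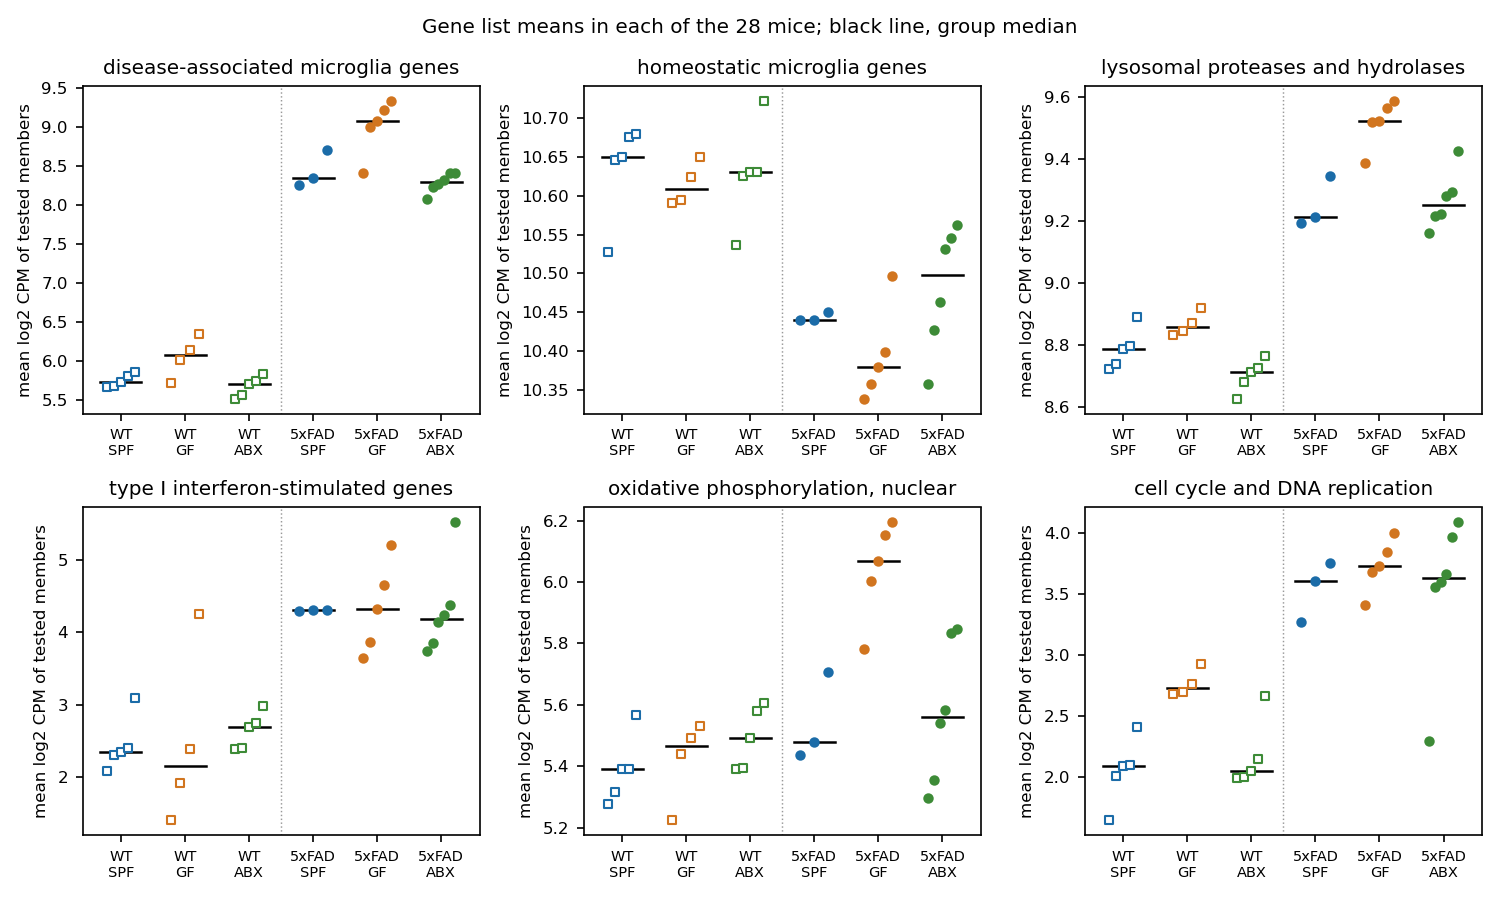
Mean log2 CPM over the tested members of 6 gene lists in each mouse, with squares for WT and circles for 5xFAD mice and a black line at the group median. The DAM means run from 5.52 to 6.35 in WT and from 8.08 to 9.33 in 5xFAD mice, and mouse FAD_ABX_1482 has a cell cycle mean of 2.30, among the WT mice.

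Antigen presentation genes were called higher in 18 of 21 members and lower in 0 (14.3% and 10.9% of all genes tested), with a median of 1.05, or 0.55 over genes with at least 10 reads in every library. With the numbering style as a term, 11 were called higher, against 1507 of all 15298 genes. *H2-D1*, a class I gene, ranged from 351 over 409.5 to 495 CPM in WT and from 946 over 1349 to 2137 CPM in 5xFAD mice without overlap (log2 fold change 1.78, SE 0.0841; edgeR adjusted p = 2.06e-16). *H2-K1* likewise separated the genotypes (1.14). *B2m*, the light chain of class I, had effects of 1.00, 1.61 and 0.54 in SPF, GF and ABX mice, and the difference was called (F test adjusted p = 0.0327). *Tap2*, a peptide transporter, was not called after adjustment (0.13, unadjusted 95% interval 0.02 to 0.24) but was called with gene length offsets, over genes with at least 10 reads in every library (0.14 in both) and without mouse FAD_ABX_1151, FAD_GF_185 or WT_ABX_923 (0.14, 0.15 and 0.14). Class II genes code for products that show peptides to helper T cells, and a difference between housings was called for *H2-Aa* and *H2-Eb1*. *H2-Aa* stood at 5.08, 0.92 and 6.25 in SPF, GF and ABX mice (F test adjusted p = 0.0409) and *H2-Eb1* at 3.91, 0.70 and 6.23 (0.0394), and neither was called in GF mice on its own. *H2-Ab1* and *Cd74*, the invariant chain gene, were called higher in the average but not in GF mice on their own, and for neither was a difference between housings called.

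Border-associated macrophages can carry class II. The median effects of their markers were 5.48, 0.87 and 7.41 for SPF, GF and ABX mice. As for *H2-Aa* and *H2-Eb1*, they were lowest in GF and highest in ABX mice. The markers summed to 4.41 to 9.23 CPM in SPF, 11.7 to 50.6 in GF and 3.88 to 7.51 CPM in ABX WT mice, and to 23.2 to 40.8, 18.8 to 92.0 and 40.9 to 282 CPM in the corresponding 5xFAD mice. In SPF WT mice *Cd163*, *Lyve1*, *Clec10a* and *Cd209f* had no read, in ABX WT mice *Cd163*, *Lyve1* and *Cd209f*, and in each 5xFAD group all 11 had reads. *H2-Aa*, *H2-Ab1*, *H2-Eb1* and *Cd74* summed to at most 37.7 CPM in SPF and 57.6 CPM in ABX WT mice and to 49.3 to 554 CPM in GF WT mice, and to 209 to 306, 258 to 1017 and 203 to 1880 CPM in SPF, GF and ABX 5xFAD mice. Among GF 5xFAD mice, FAD_GF_182 had the highest class II sum, 1017 CPM, with the lowest marker sum, 18.8 CPM, and FAD_GF_201 the reverse, with 258 and 92.0 CPM. The sort was for CD45low cells, a gate meant to leave out macrophages with high CD45, and the part of border macrophages in the class II values was not tested.

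**Figure D5:**
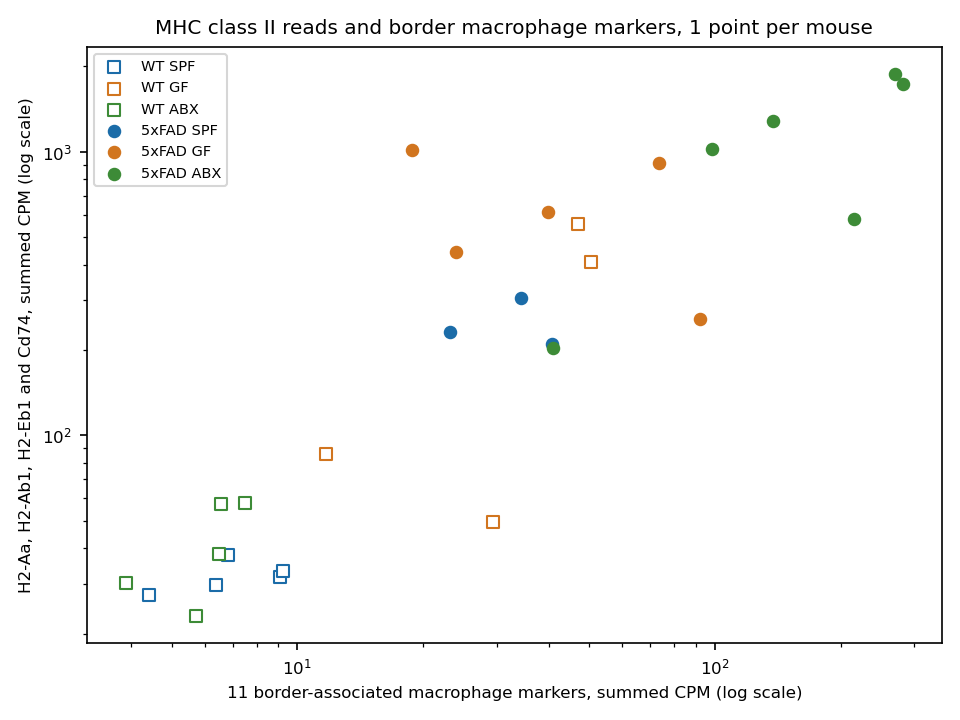
Summed CPM of MHC class II genes against summed CPM of 11 border-associated macrophage markers, both on log axes, 1 point per mouse. SPF and ABX WT mice have at most 9.23 CPM of the markers and 57.6 CPM of class II, ABX 5xFAD mice reach 282 and 1880 CPM. GF WT mice reach 50.6 and 554 CPM, and GF 5xFAD mice range from 258 to 1017 CPM of class II.

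Among 26 chemokine and cytokine genes, 15 were called higher and 1 lower (14.3% and 10.9% of all genes tested), with a median of 1.07. *Csf1* ranged from 15.2 over 24.3 to 35.2 CPM in WT and from 111 over 147 to 257 CPM in 5xFAD mice. *Tnfsf8*, the ligand of CD30, ranged from 1.56 over 3.10 to 9.07 CPM in WT and from 13.9 over 27.3 to 48.0 CPM in 5xFAD mice. Neither overlapped. Of classical inflammatory cytokines, *Il1b* rose by 1.40 with overlapping mice (edgeR adjusted p = 0.0258) and its antagonist *Il1rn* by 2.74, whereas *Tnf* (0.27), *Il6* (-0.27) and *Il1a* (-0.21) were not called. The effects of *Il1b* in SPF, GF and ABX mice were 1.54, 1.83 and 0.84, and the part of the neutrophil transcripts in SPF 5xFAD mice and FAD_ABX_1151, in libraries sorted against Ly6G, was not tested. *Il18* fell by 0.36, and *Ccl9* stood at 0.04 (95% interval -0.14 to 0.22). Of 20 complement and Fc receptor genes, 15 were called higher and 2 lower (the same backgrounds apply), with a median of 0.43, or 0.25 over genes with at least 10 reads in every library. *C3ar1*, the receptor of C3a, ranged from 299 over 359.8 to 411 CPM in WT and from 449 over 529 to 665 CPM in 5xFAD mice without overlap (log2 fold change 0.59, SE 0.0497; edgeR adjusted p = 1.34e-10). The complement genes *C3* and *C2* rose by 3.51 and 4.10, and the chains of C1q, *C1qa*, *C1qb* and *C1qc*, by 0.18, 0.37 and 0.23. *C4b* had effects of 1.23, 0.83 and 3.78 in SPF, GF and ABX mice, and this difference was called (F test adjusted p = 0.0334). *Fcgr4*, an activating Fc receptor, rose by 1.16, and *Fcgr1* was not called (-0.06, 95% interval -0.19 to 0.06).

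Of 43 lectins, scavenger and adhesion receptors, 23 were called higher and 9 lower (14.3% and 10.9% of all genes tested), with a median of 0.33. This median was 0.11 over genes with at least 10 reads in every library and 0.19 in GF mice. With library size alone 21 were higher and 14 lower, where 1756 of all 15298 genes were called higher and 2972 lower. *Pdcd1* codes for the checkpoint receptor PD-1. It ranged from 6.72 over 11.3 to 23.9 CPM in WT and from 44.7 over 65.2 to 139.5 CPM in 5xFAD mice (log2 fold change 2.42, SE 0.144; edgeR adjusted p = 4.68e-14). *Cd274*, the gene for its ligand PD-L1, ranged from 6.07 over 14.8 to 20.1 CPM in WT and from 25.0 over 34.0 to 53.9 CPM in 5xFAD mice. Neither overlapped. *Cd22*, a sialic acid receptor that restrains phagocytosis, rose by 1.41 and the tetraspanin gene *Cd9* by 1.18. Receptor genes that fell included *Clec4a2* (-0.73), *Siglece* (-0.70), *Clec4a3* (-0.44) and *Cd33* (-0.31). *Clec4a2* ranged from 46.5 over 66.3 to 107 CPM in WT and from 28.6 over 42.0 to 53.6 CPM in 5xFAD mice, with overlap. *Sirpa*, the receptor of CD47, stood at 0.08 (95% interval -0.02 to 0.18) and was called higher only with voomWithQualityWeights (0.10).

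Of 42 transcription factor genes, 7 were called higher and 12 lower (14.3% and 10.9% of all genes tested), with a median of -0.03, or -0.11 with library size alone, by which 6 were higher and 16 lower. By that scaling 1756 of all 15298 genes were called higher and 2972 lower. *Bhlhe40* rose by 5.43, *Egr2* by 2.32, *Atf3* by 1.37 and *Hif1a* by 1.30. *Hif1a*, the gene for a hypoxia-inducible factor chain, ranged from 121 over 164 to 193 CPM in WT and from 224 over 404 to 485 CPM in 5xFAD mice without overlap. *Klf2* fell by 0.89 and *Mef2a* by 0.39, but in GF mice alone *Klf2* stood at -0.72 and was not called (edgeR adjusted p = 0.0696). The lineage factor genes *Spi1* (PU.1) and *Mef2c* were not called (-0.002 and -0.07). Of 17 genes of the TGF-beta pathway, 4 were called higher and 2 lower (14.3% and 10.9% of all genes tested), with a median of -0.06, or -0.18 in GF mice. With library size alone 6 were called lower, against 2972 of all 15298 genes. The receptor gene *Tgfbr2* rose by 0.45. *Tgfbr1* fell by 0.28, a call that was lost when any 1 of 13 mice was left out (edgeR adjusted p between 0.0505 and 0.122), without a filter on low counts and in GF mice alone. *Bambi*, a pseudoreceptor that blocks the signal, rose by 2.19 without overlap. Of 26 immediate early and dissociation-induced genes, 6 were called higher and 3 lower (14.3% and 10.9% of all genes tested), with a median of 0.06, or -0.02 with library size alone. *Jun* (-0.06), *Fos* (0.88) and the heat shock gene *Hspa1a* (-1.07) were not called, and *Klf6* stood at -0.08 (95% interval -0.18 to 0.02), but was called lower with library size alone (-0.16) and with voomWithQualityWeights (-0.12).

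Of 23 glycolysis genes, 14 were called higher and 0 lower (14.3% and 10.9% of all genes tested), with a median of 0.67. With library size alone 13 were higher and 4 lower, where 1756 of all 15298 genes were called higher and 2972 lower. *Pkm*, pyruvate kinase, separated the genotypes (log2 fold change 1.19, SE 0.0746; edgeR adjusted p = 1.56e-13). *Tpi1* (1.09), *Pgk1* (0.96), *Ldha* (0.84), *Gapdh* (0.83) and the glucose transporter gene *Slc2a1* (0.66) rose without overlap. The hexokinase genes *Hk1* and *Hk2* (-0.17 and -0.21) and the other lactate dehydrogenase gene *Ldhb* (-0.10, 95% interval -0.21 to 0.01) were not called. With library size alone *Ldhb* was called lower (-0.18, edgeR adjusted p = 0.00391). Of 74 oxidative phosphorylation genes, 43 were called higher and 0 lower (the same backgrounds apply), at a median of 0.27, with unequal parts from the housings. In GF mice 56 were called higher (background 9.49%) with a median of 0.60, in SPF mice 3 (3.78%) with 0.12 and in ABX mice 8 (9.45%) with 0.10. As means over the list, GF 5xFAD mice lay between 5.78 and 6.19 log2 CPM and all WT mice between 5.23 and 5.61. SPF and ABX 5xFAD mice ranged from 5.30 to 5.85 and overlapped with WT mice. A difference between housings was called for 4 of the 74 (0.379% of all genes), *Ndufa1*, *Ndufb2*, *Cox7b* and *Atp5j*. *Ndufa1*, a subunit of complex I, had effects of 1.25, 2.05 and 0.68 in SPF, GF and ABX mice (F test adjusted p = 0.0285) and separated the genotypes, with 16.7 over 23.7 to 34.5 CPM in WT and 38.0 over 51.1 to 108 CPM in 5xFAD mice.

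Genes of the cell cycle and DNA replication were called higher in 38 of 42 members and lower in 0 (14.3% and 10.9% of all genes tested), with a median of 1.44 and of 1.65, 1.06 and 1.53 in SPF, GF and ABX mice. With the numbering style as a term, 18 were called higher, against 1507 of all 15298 genes. None separated the genotypes without overlap (1.71% of all genes lay higher and 0.131% lower in this way). *Top2a*, a topoisomerase of dividing cells, ranged from 0.782 over 6.18 to 15.7 CPM in WT and from 8.14 over 26.3 to 49.8 CPM in 5xFAD mice (log2 fold change 2.03, SE 0.262; edgeR adjusted p = 5.35e-07). In GF mice alone its effect was 1.09 and was not called (edgeR adjusted p = 0.102). *Cdk1*, the kinase that drives mitosis, ranged from 3.74 over 6.06 to 12.6 CPM in WT and from 11.6 over 18.5 to 31.3 CPM in 5xFAD mice. Further rises were *Ube2c* (2.39), *Ccnb1* (2.08) and *Mki67* (1.51), known from mitotic cells, and the replication licensing genes *Mcm3* (0.32) and *Mcm4* (0.33). *Cdk6* was not called (0.17, 95% interval -0.002 to 0.35) except with gene length offsets (0.25). As means over the list, GF WT mice lay between 2.68 and 2.93 log2 CPM, above the SPF and ABX WT mice at 1.65 to 2.66.

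The 10 largest falls among named genes of at least 3 log2 CPM on average, with the same sign in each housing, were *Klrd1*, *Actn1*, *Fcrl1*, *Camk2n1*, *Adcy8*, *Ptger3*, *Gpr165*, *Tgm2*, *Rasgrp4* and *Serpinf1*. They were smaller than the 10 largest rises under the same limits, and 35 genes of any level were called at least 2 log2 units lower. *Klrd1* was not called in GF mice alone (-0.88, edgeR adjusted p = 0.132). *Fcrl1*, of the Fc receptor-like family, ranged from 62.9 over 78.7 to 93.2 CPM in WT and from 25.3 over 38.3 to 62.6 CPM in 5xFAD mice (log2 fold change -1.05, SE 0.0788; edgeR adjusted p = 8.61e-12). *Tgm2*, a transglutaminase, ranged from 81.1 over 97.9 to 125 CPM in WT and from 23.2 over 54.1 to 69.7 CPM in 5xFAD mice. These genes, *Camk2n1*, an inhibitor of CaM kinase II, and *Serpinf1*, the gene for pigment epithelium-derived factor, were the 4 of the 10 without overlap. *Adcy8*, an adenylate cyclase, had effects of -0.32, -2.29 and -0.49 in SPF, GF and ABX mice, a difference that was not called (F test adjusted p = 0.176). Among the 20 genes with every 5xFAD mouse below every WT mouse were also the signalling genes *Rgs2* (-0.48), *Rgs19* (-0.29), *Lyn* (-0.21) and *Dapp1* (-0.58), chosen after their values were seen. *Lyn*, a kinase of immune receptors, ranged from 750.2 over 772 to 890.3 CPM in WT and from 583 over 695 to 726 CPM in 5xFAD mice. The margins of the 20 genes were narrow, with the lowest WT mouse between 1.003-fold (*Ggta1*) and 1.16-fold (*Tgm2*) above the highest 5xFAD mouse.

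Some rises were of nearly equal size in each housing. The 5 called genes of at least 1 log2 unit with the smallest span were *P3h3*, *Sh3bgrl*, *St14*, *Insig1* and *Serpine2*, which were chosen for this. *St14*, the gene for the membrane protease matriptase, ranged from 13.5 over 27.7 to 52.1 CPM in WT and from 75.5 over 104 to 192 CPM in 5xFAD mice, with effects of 2.03, 1.95 and 1.97 in SPF, GF and ABX mice and each pairwise difference bounded to within 0.619 log2 units. *P3h3*, a collagen prolyl hydroxylase, had effects of 1.14, 1.08 and 1.11 (bound 0.524), and *Insig1*, a brake on sterol synthesis, 1.33, 1.25 and 1.30 (bound 0.887). Over all 3846 called genes, the 95% intervals of all 3 pairwise differences lay within 1 log2 unit for 2124 (55.2%), and over the 869 with an averaged change of at least 1 log2 unit for 57 (6.56%). For most of the large changes these data therefore do not bound the differences between housings to 1 log2 unit.

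A difference of the 5xFAD effect between housings was called for 58 genes (0.379%; F test over the 3 housings), of which 43 were also called in the average, and 2004 genes had an unadjusted p under 0.05. The F test called 342 genes with DESeq2 and 986 with limma's voomWithQualityWeights. The count hung on single mice, with 2 genes without mouse FAD_GF_185 and 167 without mouse FAD_GF_201. By pairs, ABX against GF gave 292 genes (1.91%), and GF against SPF and ABX against SPF gave 0 by edgeR (0.0% each), with 1310 and 1036 at an unadjusted p under 0.05. Of the 58, the effect was highest in ABX and lowest in GF mice for 31 genes and the reverse for 20. Among the 58 were 7 of the 11 border macrophage markers. *Mrc1*, the mannose receptor gene, had effects of 0.91, -0.16 and 3.53 in SPF, GF and ABX mice. It stood at 8.89 to 18.4 CPM in GF WT mice and at 3.18 to 7.54 CPM in the other WT mice, against 2.86 to 26.4 CPM in GF, 5.27 to 14.6 CPM in SPF and 13.6 to 97.0 CPM in ABX 5xFAD mice. It was called within ABX mice and not within the other housings.

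Among named genes of at least 3 log2 CPM on average, the 5 with the lowest p for a difference were *Hmgn3*, *Nrep*, *Arhgef10l*, *Slc29a3* and *Hsd17b11* (F test adjusted p = 0.0226 each), and *Nrep* and *Slc29a3* were not called in the average. The averaged call of *Arhgef10l* (-0.26) was lost in an additive model of housing and genotype (-0.21, edgeR adjusted p = 0.228) and without mouse FAD_SPF_1144 (0.0790). *Hmgn3*, a nucleosome-binding protein, was at 11.4 to 14.4 CPM in GF WT and 25.1 to 38.3 CPM in GF 5xFAD mice, without overlap. In ABX mice it was at 13.6 to 19.0 and 11.7 to 17.2 CPM. *Slc29a3*, a lysosomal nucleoside transporter, had effects of 0.12, -0.61 and 0.30 in SPF, GF and ABX mice. *Hsd17b11*, a dehydrogenase of lipid droplets, had -0.23, 0.29 and -0.92. Its GF WT mice, at 19.8 to 21.4 CPM, lay below the SPF and ABX WT mice, at 36.6 to 71.2 CPM, and ABX 5xFAD mice were at 19.7 to 28.3 CPM. *Adora1*, the adenosine A1 receptor gene, was called higher in each housing, with 1.89, 4.05 and 2.26 (F test adjusted p = 0.0226), and was named after its values were seen.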

How the data were processed

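Hippocampal microglia of 28 mice were profiled by RNA-seq as whole sorted samples. The authors deposited a table of read counts per gene, which they made by aligning single reads with STAR and counting with featureCounts on the mouse genome GRCm38 with GENCODE M21, without strand information. The submitters' notes name CASAVA 1.8.2, FastQC 0.11.8, STAR 2.7.2, featureCounts 1.6.2, edgeR 3.26.7 and limma 3.40.6, and give the build as GRCh38.p12, but 46484 of the 48587 gene symbols are in the mouse annotation GENCODE M21. The 92 spike-in entries, with at most 12 reads in a library, were left out. Totals of 14441610 to 29977395 reads limit the precision of genes with few reads, and intervals on read shares cover counting error only.

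Genes were kept by filterByExpr (minimum count 10, minimum total 15), scaled by TMM and fitted with the quasi-likelihood test of edgeR 4.0.16 (R 4.3.3), with 1 term for each of the 6 genotype-by-housing groups and no covariate. The averaged contrast, the contrasts within housings and their differences came from this 1 fit, with p-values adjusted over all genes tested. Levels are CPM scaled by TMM factors, and list means are of log2 CPM with a prior count of 2. Gene positions are those of GENCODE M21 and promoter windows those of RefSeq. Alternatives were other scalings, filters, thresholds and models, DESeq2 1.42.0, limma 3.58.1 with voomWithQualityWeights, and leaving out mice. The self-test ran on simulated counts. Summaries used Python 3.11.15 with pandas 2.3.3, scipy 1.17.1 and matplotlib 3.10.9.

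The groups, gene lists, marker lists and rules were chosen with earlier results of these data known, and no list is independent evidence of its direction. Genes were named by rule as the 10 largest rises and falls of at least 3 log2 CPM on average with the same sign in each housing, the 3 called members of each of 17 lists with the lowest p and the uncalled member of highest level, the 5 genes with the smallest span between housings and the 5 with the lowest p for a difference under the same limit on level and on gene models without a proper name, *App*, *Apoe*, *Trem2*, *Cst7*, *P2ry12*, *Tmem119* and the markers of 11 cell types. Other genes were named after their values were seen, and some list members are not reported here. Replicates are separate mice by the labels.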

Additional observations from a re-analysis of the deposited data

Results flagged for a closer look

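In 260 groups of 4 to 6 mice, for the genes named by size or by rule and the means of the lists, 24 values, from 14 mice, stood far from the rest of their group (9.23% of the groups), where chance gives about 1 in 20. The values are in log2 CPM. Mouse FAD_GF_201 was the lowest GF 5xFAD mouse for *Cst7* (9.60), *Apoe* (12.38), *Trem2* (11.23) and the mean of the chemokine and cytokine list (3.81), and the highest for *Tmem119* (12.11). This is the mouse whose description reads WT. Its DAM mean was 8.41, within the 8.08 to 9.33 of 5xFAD mice and above the 5.52 to 6.35 of WT mice. The other mice that stood apart among genes that rose were WT_GF_231 for *Mamdc2* (-2.61) and *Igf1* (-1.25), WT_GF_199 for *Ch25h* (-2.41), WT_ABX_911 for *Etl4* (0.37) and WT_GF_229 for *Lox* (-3.33). The values of *Mamdc2*, *Ch25h* and *Lox* are near the floor, with 1 read of *Mamdc2* in all WT mice. At such levels the rate of 1 in 20 may not hold. Among genes that fell they were WT_SPF_936 for *Actn1* (4.24), WT_GF_231 for *Fcrl1* (6.17), FAD_ABX_1460 for *Camk2n1* (2.19) and *Rasgrp4* (1.52), FAD_GF_181 for *Adcy8* (-2.71), FAD_ABX_1482 for *Gpr165* (4.62) and FAD_GF_185 for *Tgm2* (4.54). Among genes with unequal effects they were WT_SPF_912 for *Hmgn3* (4.29) and *Nrep* (4.96) and WT_ABX_911 for *Hsd17b11* (6.16). List means stood apart in WT_SPF_926 for homeostatic genes (10.53), FAD_ABX_1452 for interferon-stimulated genes (5.52), and WT_ABX_923 and FAD_ABX_1482 for the cell cycle (2.66 and 2.30).

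Differences of the 5xFAD effect between housings were called for 58 genes by the F test of edgeR. Among named genes the adjusted p was 0.0226 for *Hmgn3*, *Nrep*, *Arhgef10l*, *Slc29a3*, *Hsd17b11*, *Mrc1*, *Pf4*, *Cbr2* and *Ms4a7*, 0.0285 for *Ndufa1* and *F13a1*, 0.0321 for *Cd163*, 0.0327 for *B2m*, 0.0394 for *H2-Eb1*, 0.0409 for *H2-Aa* and 0.0467 for *Cd209f*. *Mrc1*, *Pf4*, *Cbr2*, *Ms4a7*, *F13a1*, *Cd163* and *Cd209f* are border macrophage markers, and their part in the differences of the class II genes was not tested.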

How the results depend on the processing

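The averaged contrast called 2538 genes with the numbering style as a term, 2490 at adjusted p under 0.01 and 2411 in GF mice alone, where style and genotype are not confounded. Outside GF housing the style is nested in the genotype, so that the style term gives the GF estimates by construction and is no second line of evidence. Under the other alternatives, apart from leaving out single mice, it called between 3292 and 4728. No paired analysis was possible because the groups share no replicate numbers. At adjusted p under 0.01, 418, 1386 and 1145 genes were called for SPF, GF and ABX mice, 0 differed between housings, and 404, 710 and 683 genes chosen in a pair of housings were called in SPF, GF and ABX as the third. With voomWithQualityWeights, 2154 genes were called in SPF mice, 986 differed between housings and 1411 were called with SPF as the third. DESeq2 called 342 differences and the 26 mice without FAD_ABX_1151 and FAD_ABX_1482 called 122.

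List medians kept their sign except where given. With library size alone the median was -0.28 for homeostatic genes, 0.39 for lysosomal proteases, 0.22 for lysosomal membrane genes, -0.11 for transcription factors and -0.02 for immediate early genes. With the numbering style as a term or in GF mice alone it was 2.79 for DAM, -0.29 for homeostatic, 0.61 for lysosomal protease, 0.50 for lysosomal membrane, 0.19 for lectin, 0.60 for oxidative phosphorylation, 0.89 for glycolysis and 1.06 for cell cycle genes. With at least 10 counts in every library it was 1.91 for DAM, 0.19 for lipid, 0.92 for interferon-stimulated, 0.55 for antigen presentation, 0.25 for complement and 0.11 for lectin genes. Averages turned in sign in GF mice, and so with the style term, for *Hsd17b11* (0.29 in both), *Mrc1* (-0.16 and -0.15), *Cbr2* (-0.21 in both) and *Cd209f* (-0.18 in both). For single named genes, 4579 of the values under alternatives kept their direction and call, 66 lost a call, 30 gained one and 8 turned in sign. The cause was not tested.

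Leaving out each mouse in turn gave 3266 (without FAD_SPF_1144) to 4087 genes in the average. Within housings it gave 434 (without FAD_SPF_1144) to 818 for SPF, 1767 to 2747 for GF and 1527 to 2736 for ABX. It gave 2 (without FAD_GF_185) to 167 (without FAD_GF_201) differences, 414 (without FAD_SPF_1144) to 755, 954 to 1258 and 979 to 1282 in the third housing, and 282 to 316 genes without overlap. List medians ranged from 2.42 to 2.53 (DAM), -0.22 to -0.18 (homeostatic), 0.43 to 0.50 (proteases), 0.28 to 0.33 (membrane), 0.67 to 0.79 (lipid), 0.46 to 0.53 (cholesterol), 1.33 to 2.01 (interferon), 1.02 to 1.10 (antigen presentation), 0.98 to 1.46 (chemokines), 0.39 to 0.45 (complement), 0.29 to 0.35 (lectins), -0.045 to -0.0027 (transcription factors), 0.23 to 0.30 (oxidative phosphorylation), 0.65 to 0.71 (glycolysis), 1.35 to 1.52 (cell cycle), -0.00049 to 0.090 (immediate early) and -0.088 to -0.023 (TGF-beta).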

Other observations

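Genes encoded on the mitochondrial genome were not in any of the lists and were looked at after their values were seen. Of 17 tested, 11 were called higher in the averaged contrast and 0 lower, against 14.3% and 10.9% of all genes tested. They code for respiratory chain subunits, ribosomal RNAs and transfer RNAs of the organelle. *mt-Co1*, a subunit of cytochrome c oxidase, rose by 0.71 (edgeR adjusted p = 6.62e-05), with effects of 1.02, 0.96 and 0.14 in SPF, GF and ABX mice. *mt-Nd5*, a subunit of complex I, rose by 0.62, with effects of 0.86, 1.00 and 0.01. *mt-Cytb* had effects of 0.68, 0.95 and -0.01, and *mt-Nd1* of 0.73, 0.94 and -0.10. For these genes a difference between housings was not called (F test adjusted p = 0.207, 0.127, 0.105 and 0.105), while for the ribosomal RNA gene *mt-Rnr2*, with 0.58, 1.42 and -0.58, it was (0.0281). In SPF mice the effects of these protein genes were thus larger than the median of 0.12 of the nuclear oxidative phosphorylation genes, a contrast that was not tested.

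Calls varied with gene length. Among the 3825 shortest of the genes, sorted into 4 bins by length, 15.3% were called higher and 5.80% lower, and among the 3825 longest 12.7% and 14.1%. With gene length offsets, 2341 genes were called higher and 1557 lower.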
